A study of Homo sapiens with 6 samples.

Results

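The genes described here make cholesterol from acetyl-CoA, store it as ester, move it within and out of the cell, and adjust the whole pathway to the cell's sterol supply. They were 29 genes listed by symbol, of 26699 genes in the deposited count table, and each symbol had a row. Of the 29, 28 passed the filter on low counts and were tested; ABCG1 did not. RNA came from OVCA433, an ovarian carcinoma line of human origin, as 3 libraries labelled OVSOGA1si (si) and 3 labelled OVSOGA1sinc (sinc). Neither name is explained in the labels, which give no reagent, dose or time and do not state separate cultures for the libraries; the series title names SOGA1 as the gene made deficient. P-values therefore measure only the spread between these libraries, which may be technical.

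Cholesterol is built in the endoplasmic reticulum. Acetyl-CoA is joined into mevalonate, mevalonate is turned into farnesyl diphosphate, and farnesyl diphosphate is condensed to squalene, closed into lanosterol and trimmed to cholesterol. The transcription factor SREBP2, made by SREBF2, drives most of these enzyme genes, and SREBP1, made by SREBF1, leans toward fatty acid synthesis. SCAP carries both precursors to the Golgi for cleavage when sterol is low, and the INSIG proteins hold SCAP back when sterol is high. SOAT1 esterifies surplus cholesterol for storage in lipid droplets, and the liver X receptors, one of which is NR1H2, switch on the efflux pumps ABCA1 and ABCG1.

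SOGA1 itself stood at 25.3, 27.2 and 20.2 CPM in si replicates 1, 2 and 3, against 64.4, 59.7 and 63.9 CPM in sinc replicates 1, 2 and 3 (CPM, a count scaled to the size of its library; log2 fold change -1.37, SE 0.11, adjusted p = 0.000963). Permuting these values over the libraries gave an exact two-sided p = 0.1, as low as 3 against 3 can reach. Total counts per library ran from 33778707 to 40144134 in si and from 38031056 to 44130601 in sinc. Unless another tool is named, an adjusted p comes from edgeR's quasi-likelihood test (two-sided, Benjamini-Hochberg over all 15562 genes tested); its threshold is 0.05, and changes are si minus sinc. Of the markers listed for an ovarian epithelial carcinoma line, 10 of 12 had a row, and CDH1 and MUC16 had none. KRT7, KRT8, KRT18 and PAX8 were the most abundant. WT1 had 0 counts in all si libraries and 6, 0 and 0 counts in sinc replicates 1, 2 and 3, and was not tested. EPCAM averaged 1.93 CPM in si and 1.22 CPM in sinc, and CLDN3 0.205 CPM in si and 0.276 CPM in sinc. The summed level of the 10 markers was 7271 to 7736 CPM in si and 7100 to 7561 CPM in sinc, most of it KRT7, KRT8 and KRT18. Of 13 markers of leukocytes, endothelium and fibroblasts, 9 had a row and summed to 154 to 174 CPM in si and 137 to 139 CPM in sinc, most of it COL1A1, a collagen gene that rose (131 CPM in si, 103 CPM in sinc; adjusted p = 0.0172). The COL1A1 call ended when si replicate 1 or sinc replicate 1, 2 or 3 was left out. Of the others, CD68 was the most abundant, with 22.7 CPM in si and 21.7 CPM in sinc (0.07, adjusted p = 0.788). CDH5, an endothelial cadherin gene, had 8.11 CPM in si and 11.3 CPM in sinc and did not pass (-0.48, adjusted p = 0.0932). VWF had 0.522 CPM in si and 0.573 CPM in sinc (-0.14, adjusted p = 0.844). LUM had 0.253 CPM in si and 0.413 CPM in sinc (-0.69, adjusted p = 0.625). CD3E and DCN were at 0 in all si libraries and under 0.1 CPM on average in sinc. The median change of the 5 that were tested was -0.14. The part of these markers in the results below was not tested.

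Of the 28 tested genes, 4 fell in si, 2 rose and 22 did not pass. Over all genes tested, 10.1% were called by the same rule: 6% fell and 4.14% rose. The 4 that fell were the storage enzyme gene SOAT1 and the synthesis genes LBR, MSMO1 and SQLE, and the 2 that rose were the synthesis gene EBP and the receptor gene NR1H2. The 28 changes split almost evenly, with 15 above 0 and 13 below, and their median was 0.00054 on the log2 scale, against 0.0058 over all genes tested. Groups did not overlap for 8 members with si below, where 16.8% of all genes lay that way, and for 8 with si above, where 18.1% did. At an unadjusted p under 0.05, 9 members were lower and 7 higher, against 15% and 14.1% of all genes.

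**Figure D1:**
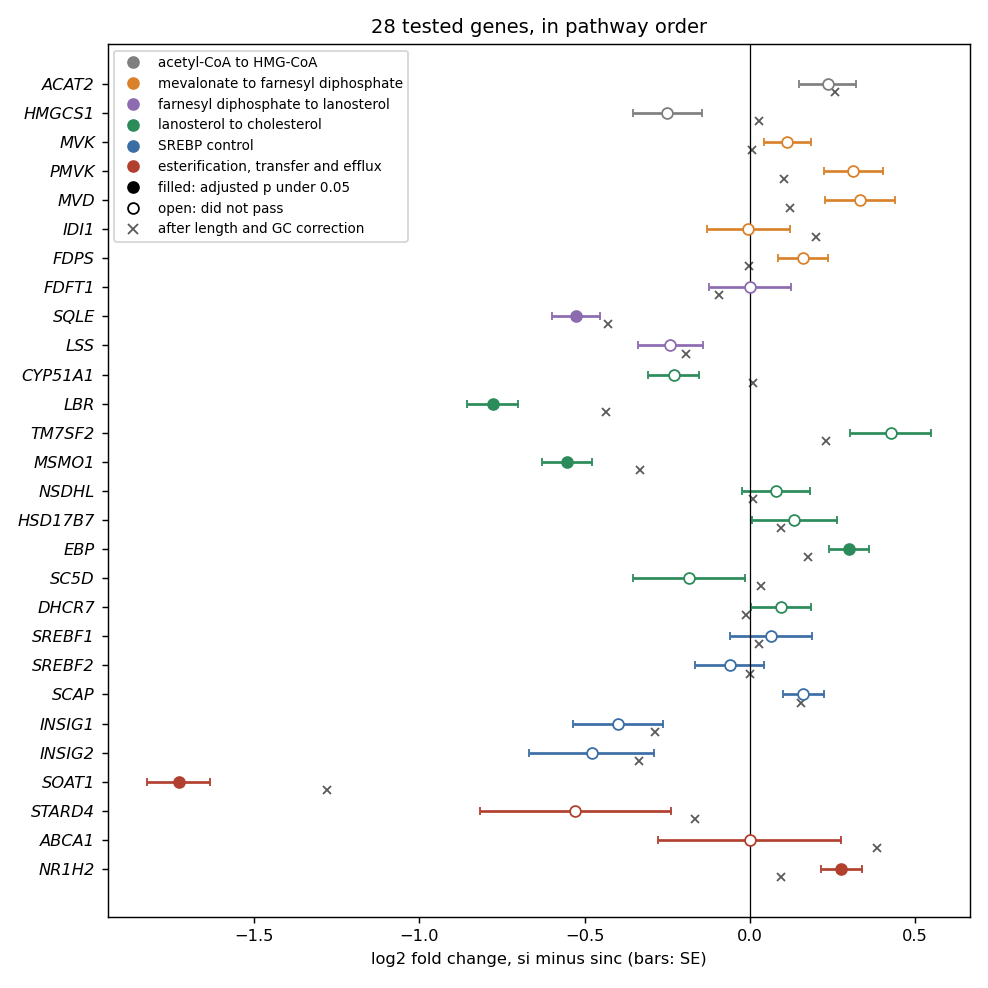
Log2 fold change, si minus sinc, of the 28 tested genes in pathway order from ACAT2 down to NR1H2, with SE bars; filled points have an adjusted p under 0.05 by edgeR, and grey crosses give the change after correction for transcript length and GC content. SOAT1 lies at -1.73, far to the left of every other gene shown, and the synthesis enzymes lie on both sides of 0.

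Sequence was examined for SOAT1 and the other members because an earlier scan of these same counts had picked out the 7-base word TGAAGTA as the one whose carriers in the 3' UTR were lowest in si, and because the word stands once in the SOGA1 coding sequence. The word was chosen on these libraries, so what follows describes the members and is no independent evidence. In the GENCODE 29 transcripts used (GRCh38), SOAT1 held 2 copies and HMGCS1, INSIG1 and ABCA1 held 1 each; no other member held any. The sites, with the word in capitals and 30 bases in all, read 5′ to 3′ on the transcript strand:
SOAT1 copy 1: cgactaacagcTGAAGTAatgacagattgt
SOAT1 copy 2: cttataacttcTGAAGTAatttgtaaaaaa
HMGCS1: acttcaaggtcTGAAGTAggacttttacct
INSIG1: cttaacaaacaTGAAGTAtggtgtaatagg
ABCA1: ataactttataTGAAGTAttaaaatgcata
The SOAT1 sites lie on the plus strand at chr1:179353876-179353905 and chr1:179354392-179354421, with the word starting at base 246 and base 762 of a 3' UTR of 5039 bases. The HMGCS1 site is at chr5:43289999-43290028 (minus strand), the INSIG1 site at chr7:155308666-155308695 (plus) and the ABCA1 site at chr9:104781066-104781095 (minus), all in 3' UTRs.

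The carriers did not share a level of change. SOAT1 stood at -1.73, INSIG1 at -0.40, HMGCS1 at -0.25 and ABCA1 at 0.0006, and only SOAT1 of these passed. LBR, MSMO1 and SQLE fell without a copy. Among all genes tested that have an annotated 3' UTR, SOGA1 aside, 2.17% held at least 2 copies and had a median change of -0.37, 9.45% held 1 copy with a median of -0.29, and the 11053 with no copy had a median of 0.016. Their median 3' UTR lengths were 4537, 2748 and 836 bases, so that copies and length moved together.

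SOAT1 (chr1:179293714-179358680, plus strand; these and later gene positions are from GENCODE 29 on GRCh38) encodes the sterol O-acyltransferase of the endoplasmic reticulum, which joins a fatty acid to cholesterol. It had 16.7, 20.01 and 16.6 CPM in si replicates 1, 2 and 3, against 62.3, 55.4 and 59.5 CPM in sinc replicates 1, 2 and 3. Every si library lay below every sinc library by a wide gap. The mean was 17.8 ± 1.93 CPM in si libraries and 59.03 ± 3.47 CPM in sinc libraries (SD, n = 3 each), which puts si at 30.1% of sinc. Its log2 fold change was -1.73 (SE 0.10, 95% interval -1.95 to -1.51, adjusted p = 0.00022). It was the 36th lowest change among the 15562 genes. Leaving out each library in turn moved it between -1.83 and -1.69, and the largest adjusted p of those 6 fits was 0.00361. With the length and GC content of transcripts corrected for in each library it was -1.28 (SE 0.10, adjusted p = 0.000527).

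LBR (chr1:225401502-225428925, minus strand) encodes the lamin B receptor, an inner nuclear membrane protein that also carries the sterol reductase activity acting after CYP51A1. Its levels were 52.5, 47.8 and 55.8 CPM in si replicates 1, 2 and 3, against 91.1, 84.3 and 92.1 CPM in sinc replicates 1, 2 and 3. The groups were well apart, and si stood at 58.3% of sinc (log2 fold change -0.78, SE 0.08, 95% interval -0.96 to -0.60, adjusted p = 0.00228). The call held with each library left out (largest adjusted p = 0.0197). The LBR transcript is 37.8% G and C, and after the length and GC correction the change was -0.43 (SE 0.16) and did not pass (adjusted p = 0.153).

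TM7SF2 encodes the other enzyme for the same reductase step. It had 24.0, 22.9 and 18.8 CPM in si replicates 1, 2 and 3, against 16.3, 15.1 and 17.5 CPM in sinc replicates 1, 2 and 3. Its si libraries all lay above the sinc libraries, but the difference of 0.43 (SE 0.12, 95% interval 0.14 to 0.71) did not pass by edgeR (adjusted p = 0.065); it passed by DESeq2 (adjusted p = 0.0156, where 8.38% of all genes were called higher and 10.4% lower) and without si replicate 3 (adjusted p = 0.0365). After the length and GC correction it was 0.23 and did not pass (adjusted p = 0.276); the transcript is 62.0% G and C. Per kilobase of transcript, the LBR level over the TM7SF2 level was 0.989, 0.944 and 1.34 in si replicates 1, 2 and 3, against 2.52, 2.53 and 2.38 in sinc replicates 1, 2 and 3. The ratio uses levels without that correction, was set up after the values were seen and was not tested. LBR thus stood near the TM7SF2 level in si and well above it in sinc. The sum of both, in CPM per kilobase, was 25.6 to 27.7 in si and 30.9 to 34.3 in sinc.

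MSMO1 (chr4:165327623-165343160, plus strand) encodes the methylsterol monooxygenase that removes methyl groups from the ring system after that step. It had 26.5, 25.7 and 23.8 CPM in si replicates 1, 2 and 3, against 38.7, 36.5 and 36.4 CPM in sinc replicates 1, 2 and 3. The groups did not overlap, and the log2 fold change was -0.55 (SE 0.08, 95% interval -0.73 to -0.38, adjusted p = 0.00776). Without sinc replicate 1 the adjusted p was 0.0545, at a change of -0.53. After the length and GC correction the change was -0.33 and did not pass (adjusted p = 0.128); the transcript is 38.1% G and C.

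SQLE encodes squalene epoxidase, which puts oxygen on squalene and is a rate-limiting enzyme late in the pathway. It had 35.5, 31.1 and 33.1 CPM in si replicates 1, 2 and 3, against 47.9, 47.1 and 48.4 CPM in sinc replicates 1, 2 and 3. The sinc libraries lay close together and all above si (log2 fold change -0.52, SE 0.07, 95% interval -0.69 to -0.36, adjusted p = 0.008). Without sinc replicate 1 the adjusted p was 0.0539, at the same size of change (-0.52). The change after the length and GC correction was -0.43 and passed (adjusted p = 0.0182). SOAT1 and SQLE were the members that fell in that fit, in which 2.77% of all genes did.

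**Figure D2:**
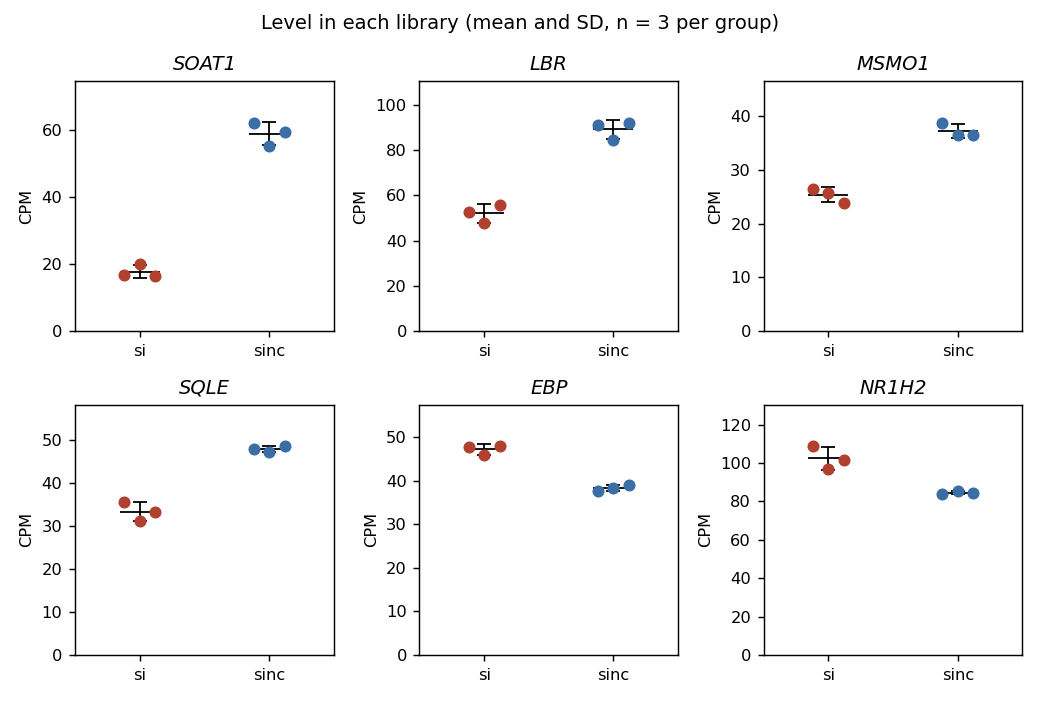
CPM in each library for the 6 genes with an adjusted p under 0.05, si left (red) and sinc right (blue), with the mean and SD of 3 libraries; each y axis starts at 0 and has its own scale. SOAT1 averages 17.8 CPM in si and 59.03 CPM in sinc, and in none of the 6 panels do the groups overlap.

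The enzymes that neighbour SQLE did not pass. FDFT1, squalene synthase, had 222, 204 and 153 CPM in si replicates 1, 2 and 3, against 193, 198 and 188 CPM in sinc replicates 1, 2 and 3. The si libraries lay on both sides of sinc, and the difference was 0.0005 (95% interval -0.29 to 0.29), a direction that turns with the scaling: it was -0.0013 with RLE and -0.028 with total counts. LSS, which closes squalene epoxide into lanosterol, had 91.8, 90.9 and 71.6 CPM in si replicates 1, 2 and 3, against 97.8, 103.2 and 99.4 CPM in sinc replicates 1, 2 and 3. All si values lay below sinc, and the difference of -0.24 (SE 0.10) did not pass (adjusted p = 0.155).

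At the start of the pathway, neither gene that leads to HMG-CoA passed. ACAT2, the cytosolic thiolase that joins acetyl-CoA units, averaged 55.2 ± 3.43 CPM in si libraries and 46.9 ± 4.06 CPM in sinc libraries (SD, n = 3 each; difference 0.24, 95% interval 0.04 to 0.43, adjusted p = 0.117). HMGCS1, the synthase that makes HMG-CoA and a well-known SREBP target, had 23.0, 23.4 and 28.4 CPM in si replicates 1, 2 and 3, against 27.9, 29.6 and 31.4 CPM in sinc replicates 1, 2 and 3. The groups overlapped in si replicate 3, and the difference was -0.25 (95% interval -0.49 to -0.01, adjusted p = 0.16) and 0.03 after the length and GC correction. ACAT2 shares 397 exon bases with TCP1 on the opposite strand (TCP1: 189 CPM in si, 216 CPM in sinc), and whether the counting used strand is not given in the sources used here.

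The 5 genes from mevalonate to farnesyl diphosphate gave 0 calls in either direction, against 4.14% of all genes higher and 6% lower. At an unadjusted p under 0.05, 2 were higher and 0 lower by edgeR, against 14.1% and 15% of all genes. DESeq2 called the same 2, PMVK and MVD, higher, as it did 8.38% of all genes. PMVK, phosphomevalonate kinase, averaged 47.2 ± 3.16 CPM in si and 37.95 ± 3.40 CPM in sinc (difference 0.31, 95% interval 0.11 to 0.52, adjusted p = 0.0636). MVD, the decarboxylase after it, had 59.97, 52.8 and 46.2 CPM in si replicates 1, 2 and 3, against 38.6, 44.1 and 43.5 CPM in sinc replicates 1, 2 and 3. All its si values lay above sinc (difference 0.33, SE 0.11, adjusted p = 0.0849), and without si replicate 3 the difference was 0.41 and passed (adjusted p = 0.0411). MVK, mevalonate kinase, stood at 0.11, FDPS, farnesyl diphosphate synthase, at 0.16, and IDI1, the isomerase between them, at -0.0045 (95% interval -0.30 to 0.29); the sign of IDI1 turned with upper-quartile scaling (0.019). The transcripts of PMVK, MVD and MVK are 59.5%, 65.6% and 59.4% G and C, and their differences after correction were 0.10, 0.12 and 0.0083.

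Among the 9 enzymes from lanosterol to cholesterol, LBR and MSMO1 fell, EBP rose and 6 did not pass, where 6% of all genes fell and 4.14% rose. EBP (chrX:48521158-48528716, plus strand), the sterol isomerase also known as emopamil binding protein, had 47.9, 45.8 and 47.9 CPM in si replicates 1, 2 and 3, against 37.6, 38.3 and 39.0 CPM in sinc replicates 1, 2 and 3. The groups did not overlap, and the log2 fold change was 0.30 (SE 0.06, 95% interval 0.16 to 0.44, adjusted p = 0.0262). The call ended without sinc replicate 1, 2 or 3 or si replicate 1 (adjusted p = 0.124, 0.0814, 0.09 and 0.115) and after the length and GC correction (0.18, adjusted p = 0.155). CYP51A1, the lanosterol demethylase that opens this stretch of the pathway, had 68.5, 58.5 and 61.2 CPM in si replicates 1, 2 and 3, against 70.7, 73.1 and 76.9 CPM in sinc replicates 1, 2 and 3, all si values below sinc (difference -0.23, SE 0.08, adjusted p = 0.0961; 0.0098 after correction). An unnamed coding gene on the same strand shares 2844 of its 3584 exon bases and was counted with 0.0583 CPM in si and 0 in sinc. NSDHL, HSD17B7, SC5D and DHCR7, the dehydrogenase, ketone reductase, desaturase and final reductase of the pathway, stood at 0.08, 0.14, -0.18 and 0.10, with intervals that reach from -0.58 (SC5D) to 0.43 (HSD17B7), and each had overlapping groups.

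None of the 5 genes of SREBP control passed by edgeR in either direction, where 4.14% of all genes rose and 6% fell. At an unadjusted p under 0.05, 2 were lower and 1 higher, against 15% and 14.1% of all genes. DESeq2 called 1 of the 5, INSIG1, lower, as it did 10.4% of all genes. SREBF2 had 253, 239 and 188 CPM in si replicates 1, 2 and 3, against 232, 242 and 236 CPM in sinc replicates 1, 2 and 3. Si replicate 3 was the low one, and the difference was -0.06 (SE 0.11, 95% interval -0.31 to 0.18, adjusted p = 0.743) and 0.047 without that library. SREBF1 averaged 24.1 ± 3.84 CPM in si and 23.03 ± 0.927 CPM in sinc (difference 0.06, 95% interval -0.23 to 0.35), and its sign also turned when si replicate 1 was left out (-0.052). SCAP averaged 115 ± 3.32 CPM in si and 103 ± 5.71 CPM in sinc (difference 0.16, 95% interval 0.02 to 0.31, adjusted p = 0.135).

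INSIG1, itself a sterol-responsive SREBP target, had 11.4, 9.19 and 10.1 CPM in si replicates 1, 2 and 3, against 12.4, 13.4 and 14.7 CPM in sinc replicates 1, 2 and 3. All si values lay below sinc; the difference of -0.40 (SE 0.14, 95% interval -0.71 to -0.09) did not pass by edgeR (adjusted p = 0.0994) and passed by DESeq2 (adjusted p = 0.0479). INSIG2, the less sterol-responsive relative, had 4.76, 5.67 and 3.90 CPM in si replicates 1, 2 and 3, against 6.60, 7.57 and 5.80 CPM in sinc replicates 1, 2 and 3. It too lay lower in every si library (difference -0.48, SE 0.19, adjusted p = 0.142). After the length and GC correction both kept a negative difference that did not pass, -0.29 for INSIG1 and -0.34 for INSIG2.

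The SREBF2 promoter is shown because SREBP2 acts on its own gene and the sterol element there could be read directly. RefSeq windows on GRCh38.p14, from 250 bases before to 50 bases after each start, were found for 25 of the 29 genes and searched on both strands for TCACNCCAC, a strict form of the element. ACAT2, FDFT1, SQLE and ABCG1 had no window and were not searched. Of the 25, SREBF2 alone held the element, at position -133 from the start on the plus strand, within chr22:41832962-41832991, shown 5′ to 3′ with the element in capitals.
SREBF2: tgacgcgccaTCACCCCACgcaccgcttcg
Of all 35116 windows, 1.13% hold these letters. Counted by gene, it was 1 of the 25 (4%), against 1.5% of the 10457 tested genes with a window. CCAAT, the core of the NF-Y site often found beside sterol elements, stood in the windows of 17 of the 25 genes (68%), against 43.2% of the 10457 tested genes with a window and 34.6% of all windows. It was present for SOAT1, MSMO1 and EBP and not for LBR or NR1H2, so that genes that fell, and genes that rose, were found with and without it. E-box letters, CACGTG, stood in 5 of the 25 (20%), against 12.65% of the tested genes with a window and 7.26% of all windows. A match describes letters in a window and is not a binding site.

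Of the transfer and efflux genes, NR1H2 rose. NR1H2 (chr19:50329653-50382982, plus strand), which encodes liver X receptor beta, had 109, 97.02 and 102 CPM in si replicates 1, 2 and 3, against 83.8, 85.3 and 84.3 CPM in sinc replicates 1, 2 and 3. The groups did not overlap (log2 fold change 0.28, SE 0.06, 95% interval 0.13 to 0.42, adjusted p = 0.0339). The call ended with any library but si replicate 2 left out (largest adjusted p = 0.15, without si replicate 1) and after the length and GC correction (0.10, adjusted p = 0.41). The receptor's efflux targets were barely expressed. ABCA1 had 2.52, 2.50 and 1.39 CPM in si replicates 1, 2 and 3, against 1.96, 2.49 and 1.95 CPM in sinc replicates 1, 2 and 3, with overlapping groups and a difference of 0.0006 (95% interval -0.64 to 0.64), negative under RLE (-0.0014) and total-count scaling (-0.027). ABCG1 had 0 counts in all si libraries, which allows up to 0.0747 to 0.0888 CPM (3 counts of each library's total; counting error only), and 6, 0 and 0 counts in sinc replicates 1, 2 and 3. STARD4, a soluble sterol carrier, had 6.85, 8.94 and 3.87 CPM in si replicates 1, 2 and 3, against 11.2, 8.64 and 8.53 CPM in sinc replicates 1, 2 and 3. Si replicate 2 lay within the sinc range and si replicate 3 far below it, and the difference of -0.53 had an SE of 0.29 (adjusted p = 0.272); it was -0.27 without si replicate 3.

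Levels between genes were compared per kilobase of transcript. FDPS was the highest, at 190 CPM per kilobase in si and 170 in sinc, followed by FDFT1 at 102.1 in si and 102.03 in sinc. NR1H2 stood at 51.3 in si and 42.3 in sinc, and SREBF2 at 43.2 in si and 45.1 in sinc. The enzymes after FDFT1 lay between 2.29 (SC5D) and 26.6 (EBP) in si and between 2.60 (SC5D) and 23.4 (LBR) in sinc. SOAT1 was at 2.60 in si, close to SC5D, and at 8.64 in sinc, close to HMGCS1 (7.11 in si and 8.45 in sinc). The lowest were STARD4 (1.42 in si, 2.06 in sinc), ABCA1 (0.204 in both groups) and ABCG1 (0 in si, 0.014 in sinc). Summed over the 29 genes, the level was 1805, 1692 and 1510 CPM in si replicates 1, 2 and 3, against 1680, 1734 and 1712 CPM in sinc replicates 1, 2 and 3, so that the groups overlapped; fewer cells expressing a gene and less RNA per cell cannot be told apart in such bulk samples.

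Transcript GC content and transcript length both moved with the changes. Across the 28 members, log2 fold change and GC content had a Spearman rho of 0.788 and a Pearson r of 0.672, and across the 12749 tested genes with a coding transcript rho was 0.494 and r 0.428. For transcript length, rho with the change was -0.502 over the members and -0.469 over the 12749 genes. These are descriptions over genes measured in the same 6 libraries. With all genes divided by GC content into 5 bins of equal size, the bin with the least GC (31.3% to 41.6%) had a median change of -0.32, and the 9 members there had one of -0.48. In the bin with the most GC (59.0% to 74.6%) all genes had a median of 0.15 and the 7 members there 0.28. Of the 4 members that fell, SOAT1, LBR and MSMO1 lie in the lowest bin, where 8.12% of all genes fell, and NR1H2 lies in the highest, where 9.18% rose. The libraries differed in the same way: the median deviation of GC-rich minus GC-poor genes from the mean of all libraries was 0.43, 0.015 and 0.29 in si replicates 1, 2 and 3, against -0.47, -0.15 and -0.10 in sinc replicates 1, 2 and 3. With each library corrected for length and GC, SOAT1 and SQLE remained lower and 0 members were higher (2.03% of all genes were). After that correction, rho with GC content was 0.429 over the members and -0.017 over the 12749 genes.

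**Figure D3:**
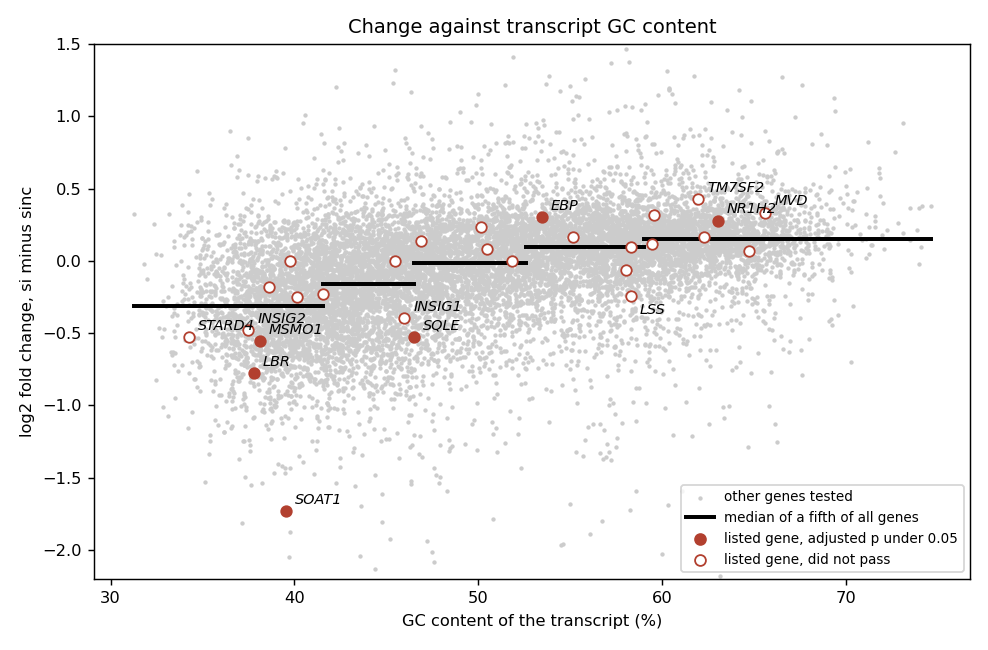
Log2 fold change, si minus sinc, against the GC content of the transcript for the listed genes (red) and all other tested genes with a coding transcript (grey); black bars give the median of each of 5 equal bins of all genes, and 21 genes lie outside the plotted range of -2.2 to 1.5. The bars climb from -0.32 to 0.15, most listed genes lie near them, and SOAT1 lies far below its own bar.

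Si replicate 3 stood apart from the other si libraries in these genes. It was below the mean of si replicates 1 and 2 for 23 of the 28 members, against 52.7% of all genes tested, and the median of that log2 difference was -0.15 in the members and -0.018 over all genes. It held the lowest of the 6 values for 12 of the 28 members, against 20.8% of all genes, and sinc replicate 1 held it for 8, against 19.2% of all genes. FDFT1 (-0.47), SREBF2 (-0.39), SREBF1 (-0.38), LSS (-0.35) and STARD4 (-1.03) were among the lower ones, and HMGCS1 (0.29) and LBR (0.15) lay higher there. The same library had the smallest share of counts from protein-coding mitochondrial genes, 1.13%, against 2.03% to 2.94% in the other libraries; the part of that difference in the values was not tested. Without si replicate 3, 4 members fell and 3 rose, by edgeR: SOAT1, LBR, MSMO1 and SQLE were lower and EBP, MVD and TM7SF2 higher, in a fit in which 5.98% of all genes fell and 3.18% rose. Several members had a larger SD in si than in sinc, among them FDFT1 (35.4 against 4.78 CPM), SREBF2 (34.3 against 5.10 CPM), FDPS (25.0 against 7.77 CPM), LSS (11.4 against 2.78 CPM) and DHCR7 (7.09 against 1.43 CPM). Others had a smaller SD in si, among them SOAT1 (1.93 against 3.47 CPM), SCAP (3.32 against 5.71 CPM) and PMVK (3.16 against 3.40 CPM). No share over all genes is given here for either direction.

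**Figure D4:**
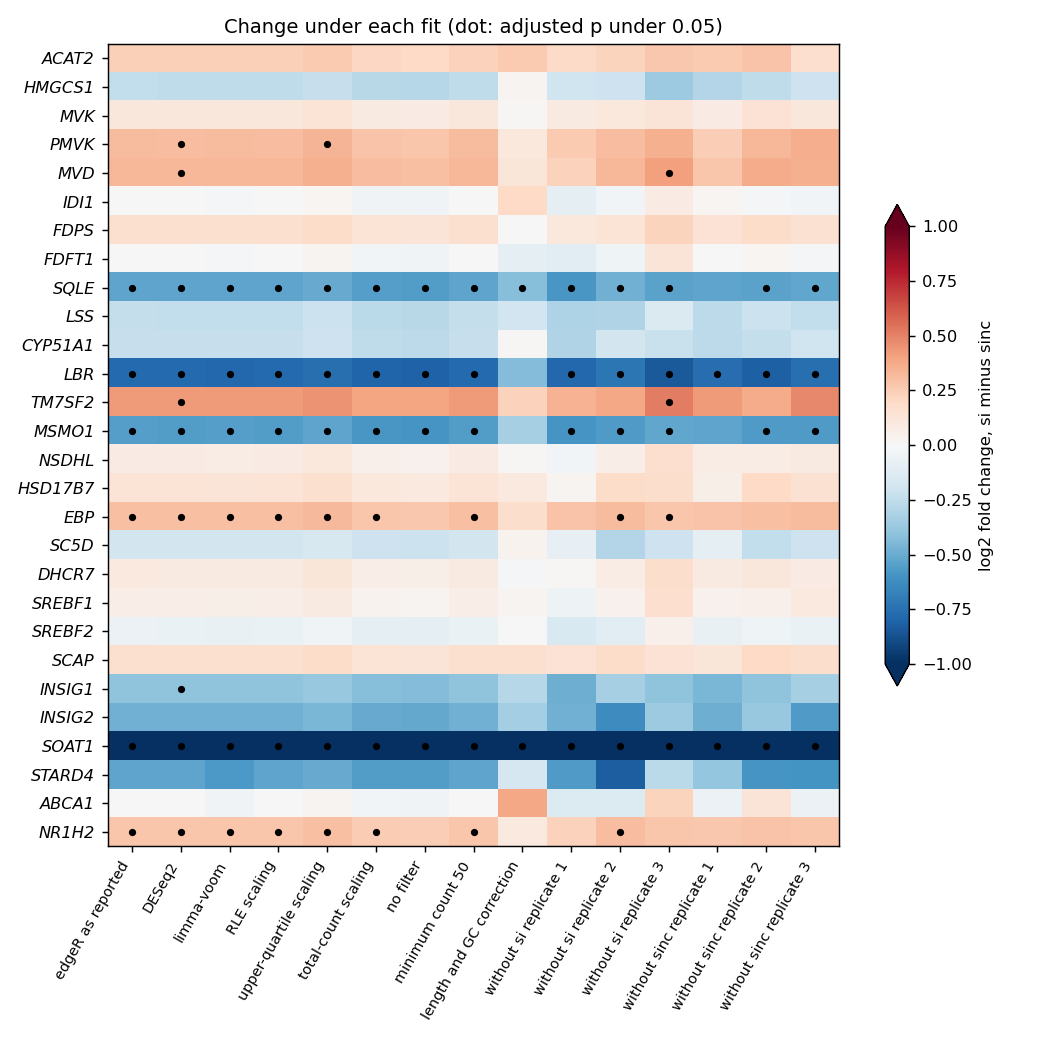
Log2 fold change, si minus sinc, of the 28 tested genes (rows, pathway order) under edgeR as reported and 14 alternative fits (columns); red is higher in si, blue lower, colours saturate at 1 and -1, and a dot marks an adjusted p under 0.05. The SOAT1 row carries a dot in every column shown, LBR in all but the length and GC correction, and the columns without sinc replicate 1 and with that correction have the fewest dots.

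Genes around the pathway were counted in 4 lists, to be read beside the 4.14% of all genes that rose and the 6% that fell, or the 2.03% and 2.77% after the length and GC correction. Of 17 measured genes of fatty acid synthesis and desaturation, 2 rose, 2 fell and 13 did not pass (median -0.21). ACSS2, which makes acetyl-CoA from acetate, rose by 0.33 (97.9 ± 2.23 CPM in si, 77.8 ± 3.08 CPM in sinc; adjusted p = 0.0176) and ELOVL1, an elongase, by 0.27 (adjusted p = 0.0323). ACLY, which makes cytosolic acetyl-CoA from citrate, averaged 308 CPM in si (SD 17.9, n = 3), against 375 CPM in sinc (SD 12.1, n = 3), and fell by 0.28 on the log2 scale (adjusted p = 0.0321), and the acyl-CoA synthetase gene ACSL3 fell by 0.64 (adjusted p = 0.0113). Of these, ACSS2 kept its call after the length and GC correction (0.28, adjusted p = 0.0453). The ACSS2 and ACLY calls ended when si replicate 1 or sinc replicate 1, 2 or 3 was left out. The ACSL3 call ended without si replicate 1, sinc replicate 1 or sinc replicate 3. With a library left out, ELOVL1 kept its call only without si replicate 2.

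Of 21 measured genes of SREBP cleavage, vesicle transport and sterol-regulated degradation, 4 fell, 0 rose and 17 did not pass (median -0.058). They were SAR1A, a GTPase of the vesicles that leave the endoplasmic reticulum (-0.49, adjusted p = 0.008), and 3 genes of protein degradation at that membrane, SEL1L (-0.69, adjusted p = 0.0273), FAF2 (-0.33, adjusted p = 0.0231) and MARCHF6 (-0.44, adjusted p = 0.0474), the ubiquitin ligase gene whose product also degrades squalene epoxidase. In the length and GC correction 0 of these 21 were called. Of 25 measured genes of sterol binding and transfer, 2 fell and 0 rose: OSBPL11 (-0.74, adjusted p = 0.0156) and OSBPL1A (-0.39, adjusted p = 0.0419), both oxysterol-binding-protein relatives, and 0 were called after correction. Of 17 measured genes of the non-sterol branches, TRIT1, which adds an isoprenoid group to transfer RNA, fell (-0.67, adjusted p = 0.0142; -0.60 after correction, adjusted p = 0.0172) and 16 did not pass. The calls on TRIT1, OSBPL11, SEL1L and MARCHF6 ended when si replicate 1 or sinc replicate 1, 2 or 3 was left out. FAF2 lost its call without sinc replicate 1, 2 or 3, and SAR1A only without sinc replicate 1. With a library left out, OSBPL1A kept its call only without si replicate 2. Without sinc replicate 1, 0 of the genes in the 4 lists were called in either direction, in a fit in which 0.195% of all genes were higher and 1.08% lower.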

How the data were processed

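Poly(A) RNA was made into strand-specific dUTP libraries, per the labels' protocols. The authors deposited whole-number counts per gene for 6 libraries. The submitters' processing notes name CASAVA and StringTie; their versions, the aligner, the build, the annotation and any use of strand were not stated in the sources used. Reads copied by PCR count more than once. The limit given for a count of 0 covers counting error only.

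Members were rows whose symbol equals a listed gene. Members and lists were chosen with earlier results of these data known. Every member with a row was named, as were list genes past the threshold, at most 5 a list. Placeholder or date symbols (783 rows) took the reference symbol of the same ID. For the main test, edgeR 4.0.16 under R 4.3.3 took the counts with filterByExpr at a minimum count of 10, TMM, glmQLFit and glmQLFTest, with group as the only term; the script was tested on simulated data. The common biological coefficient of variation was 18.8%. An SE was computed from the change and its F statistic, and 95% intervals, which include the spread between libraries, used 7.8 degrees of freedom. Within each group, counts of any pair of libraries differed beyond sampling noise (chi-square per gene 14 to 61). Alternatives were scaling by RLE, by upper quartile or by total count, DESeq2 1.42.0, voom in limma 3.58.1, no filter, a minimum count of 50, a replicate block, each library left out, and splines with 4 degrees of freedom for length and GC content, entered as offsets, for the 12749 genes (81.9%) with a coding transcript in GENCODE 29. The transcript taken was the one with the longest coding sequence. Promoters came from RefSeq, GRCh38.p14.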

Additional observations from a re-analysis of the deposited data

How the results depend on the processing

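SOAT1 kept its call in every fit run, with log2 fold changes from -1.83 to -1.28, and SOGA1 likewise (-1.46 to -1.14). The count of lower members was 4 (main), 2 after the length and GC correction, 1 with that correction and the replicate block together, and 2 to 4 with a library left out (2 without sinc replicate 1). The count of higher members was 2 (main), 5 by DESeq2, 4 on the same genes as the correction but uncorrected (added after the data were seen), 0 with no filter, the correction, the replicate block or both, and 0 to 3 with a library left out. All genes called numbered 1579, against 2926 by DESeq2, 844 with no filter, 438 with the replicate block, 612 after correction, 264 with both, and 203 to 2563 with a library left out. Genes of the 4 lists called higher numbered 2, against 1 after correction, 1 with no filter, 0 with the block or both and 0 to 3 with a library left out; those called lower numbered 9, against 1 after correction, 2 with the block, 0 with both and 0 to 16 with a library left out.

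Upper-quartile scaling moved the split over all genes to 1005 higher and 890 lower. Deviations of same-numbered libraries had correlations of -0.18, -0.035 and 0.15, and those of libraries with different numbers ran from -0.28 to 0.32. With 3 libraries a group these deviations are not independent, so whether the numbers pair libraries cannot be told. Among the 28 members the block ended the calls on EBP and NR1H2. Signs turned for some members that had not passed, from IDI1 near 0 to HMGCS1 (-0.25) and CYP51A1 (-0.23). Correction, alone and with the block, gave 0.029 and 0.026 for HMGCS1, 0.20 and 0.19 for IDI1, -0.00077 and -0.0039 for FDPS, -0.093 and -0.11 for FDFT1, 0.0098 and 0.0046 for CYP51A1, 0.034 and 0.033 for SC5D, -0.0098 and -0.015 for DHCR7, and, alone, 0.0020 for SREBF2. IDI1 was 0.019 with upper-quartile scaling and 0.0046 on the uncorrected same genes. FDFT1 and ABCA1 were -0.0013 and -0.0014 with RLE, -0.028 and -0.027 with total counts, -0.0013 and -0.0013 by DESeq2, -0.015 and -0.033 by limma-voom, -0.034 and -0.034 with no filter, -0.0011 and -0.00091 at a minimum count of 50, and -0.016 and -0.035 with the block. With a library left out, the ranges were -0.095 to 0.086 for IDI1, -0.12 to 0.13 for FDFT1, -0.024 to 0.17 for NSDHL, -0.052 to 0.17 for SREBF1, -0.15 to 0.047 for SREBF2 and -0.14 to 0.22 for ABCA1. The cause of these differences was not tested. With 3 libraries a group, genes near 5 CPM such as INSIG2 and SC5D had SEs of 0.19 and 0.17; their differences of -0.48 and -0.18 did not pass.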
